A study of Mus musculus with 22 samples.

Results

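The developmental change of the anterior neural tube over the period of its closure was followed in embryos of the water-injected control arm, from gestational day (GD) 8 at hour 15 (GD8:15) to GD9 at hour 12 (GD9:12). All samples titled as neural tube control at these stages were taken, which gave 7 of the 22 arrays of the series. They were 3 GD9:12 arrays and 4 GD8:15 arrays. Embryos of both groups lacked Folr2 (Folr2-/-, called Folbp2 nullizygous in the labels), a membrane receptor for folate. Their dams had been injected intraperitoneally with water, 10 µL per g of body weight, on GD7:12 and again on GD8:12, so that collection came 24 h after the second injection at GD9:12 and 3 h after it at GD8:15. Folr2 loss and both injections were thus common to the groups, and no array of a wild-type or uninjected embryo was used here. Further arrays of the series were 4 water controls at GD9:00 and 11 arrays of embryos whose dams had received sodium arsenate at 9.6 mg of arsenic per kg at the times of the water injections. Amplified RNA was hybridised to 1-colour oligonucleotide arrays. The labels do not say whether arrays of a group came from different dams, so the p-values below measure the spread between these samples, which may in part be technical.

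During neurulation the neural plate bends, its folds rise and their tips fuse in the dorsal midline, and the closing tube is at the same time divided into forebrain, midbrain, hindbrain and spinal cord. Dorsal cells are patterned by Wnt and Bmp signals of the midline and by the Zic transcription factors, and the border of midbrain and hindbrain is an organising centre that signals through Fgf ligands and carries the engrailed homeobox genes. The heart, the foregut, the surface ectoderm and the cranial mesenchyme lie directly beside the anterior neural tube at these stages.

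Apart from values of 1 or 2, the lowest deposited intensity of the 22 arrays was 56, and the highest on the 7 arrays was 85027. The median of an array was 180 to 231 at GD9:12 and 128 to 219 at GD8:15. All levels below are log2 intensities after quantile normalisation, on which the lower quartile of an array was 7.19 and its median 7.53, and a difference of 1 is a 2-fold change. Pairs of arrays correlated across probes with r of 0.955 to 0.976 within GD9:12, 0.929 to 0.972 within GD8:15 and 0.897 to 0.938 between the stages. GD8:15 replicate 3 stood apart from its group, with a median r of 0.938 to the others against 0.969 among the other 3. Folr2 lay at 7.03 ± 0.09 (SD, n = 3) at GD9:12 and 7.05 ± 0.09 (SD, n = 4) at GD8:15, below the intensity filter at both stages. Xist, the RNA of the inactive X chromosome, was at 11.34 on GD9:12 replicate 1 and between 6.88 and 7.10 on the other 6 arrays. The array codes in the sample titles fall into 4 series by their leading digits, whose meaning the labels do not give. GD9:12 replicates 2 and 3 and GD8:15 replicate 3 shared a series, called the shared code series below, GD8:15 replicates 2 and 4 shared another, and the remaining 2 arrays had a series each. A value stands for its probe: among 92 genes with 2 tested probes, the differences of the 2 probes correlated with r = 0.0226, 49 pairs had the same sign, and of 19 genes with at least 1 called probe 0 had both called.

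Between the stages, 604 of 7833 tested probes changed at an adjusted p under 0.05 (limma with Benjamini-Hochberg adjustment), which is 7.71% of those tested. At GD9:12, 295 were higher (3.77%) and 309 lower (3.94%), with median sizes of 0.98 and 1.04 on the log2 scale. The change was 2-fold or more for 145 of the higher and 163 of the lower probes, and 4-fold or more for 19 and 26. By gene, taking the brightest probe of each, 565 of 7190 changed (7.86%), 270 of them higher (3.76%) and 295 lower (4.1%). The median difference over all genes was -0.01. Shares near or below 7.86% were called in the proteasome (8.57%), cholesterol synthesis (8.33%), hypoxia response (7.14%) and cell cycle and DNA replication (6.35%) lists. So it was for the Notch (5.88%), endothelium (5.26%), heat shock and oxidative stress (5%) and folate (4.76%) lists. Other lists with a call ran from 9.09% (cell cycle inhibitors) to 31.2% (mesenchyme), and these shares were not tested. The 3 arrays of GD9:12 lay beyond all 4 arrays of GD8:15 for 592 of the 604 probes, and for 31.2% of all probes tested. The split into higher and lower depended on scaling. With the authors' own scaling kept, which shifts the median of all probes by 0.27, 1323 probes were higher and 98 lower, and with median centring 726 were higher and 248 lower. Among the arrays of the shared code series alone, 21 probes were higher and 107 lower, and with the code series as a fixed block 16 were higher and 31 lower. Of the 113 genes named below with a call, 105 lost it with the fixed block and 93 within the shared series, where GD8:15 had 1 array. Zic1, Myl7, Hspb1, Wfdc1, Ccdc88a and Kti12 kept theirs in both fits, which are not separate checks. Both fits compare GD9:12 replicates 2 and 3 with GD8:15 replicate 3, the array that stood apart from its group. They give the same differences and vary only in the estimate of the spread. With the authors' scaling 33 of the 113 were not called, 29 of them lower at GD9:12, and with median centring 28 were not, 25 of them lower. Without GD9:12 replicates 1, 2 and 3 in turn 370, 291 and 312 probes were called, and without GD8:15 replicate 4 388 were. Fewer cells of a type and less of an RNA per cell cannot be told apart in such dissected tissue.

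**Figure D1:**
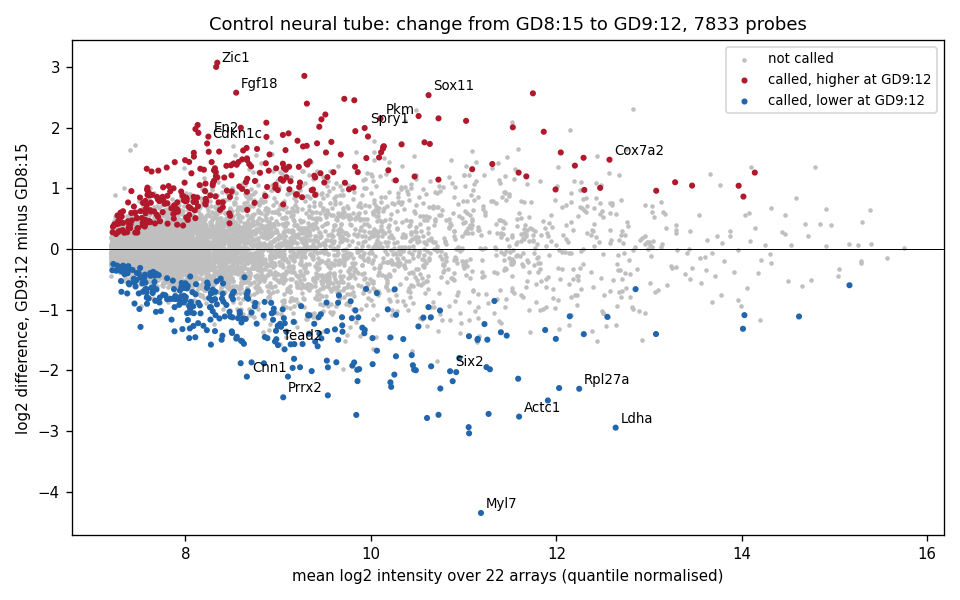
Each point is 1 of the 7833 tested probes, with its mean log2 intensity over 22 arrays on the horizontal axis and the log2 difference GD9:12 minus GD8:15 in control arrays on the vertical axis. The 295 called higher are red and the 309 called lower blue, and the atrial myosin gene Myl7 lies lowest at -4.35.

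The largest rises were spread over dorsal patterning, the midbrain-hindbrain border and genes without a role in either. Zic1, a zinc finger transcription factor of the dorsal neural tube, read 10.25, 10.40 and 10.57 at GD9:12, against 7.69, 7.41, 7.31 and 7.22 at GD8:15. Its lowest GD9:12 array lay far above its highest GD8:15 array, and it was 7.99-fold higher (3.00 ± 0.25 SE, adjusted p = 3.42e-06), the lowest p of all probes. Wnt3a, a Wnt ligand made in the dorsal midline, read 8.85, 9.76 and 8.76 at GD9:12, against 7.69, 7.81, 7.81 and 7.45 at GD8:15. The groups did not overlap, and the difference was 1.43 ± 0.23 SE (adjusted p = 0.00123). In the list for dorsoventral patterning 4 of 29 tested genes rose and 1 fell, with a median of 0.02. The other risers were Zic2, a relative of Zic1 (1.40 ± 0.39 SE), and Nog, an antagonist of Bmp ligands (0.27 ± 0.08), and the ligand Bmp7 fell (-0.70 ± 0.20). The calls of Zic2, Nog and Bmp7 ended when any 1 of 5 or 6 of the 7 arrays was left out, among them GD9:12 replicate 2 (adjusted p = 0.17, 0.177 and 0.122 without it), whereas Zic1 and Wnt3a were called without each of the 7. The ventral ligand Shh, at a difference of 0.02 ± 0.12 SE, and the dorsal factor Pax3, at -0.02 ± 0.29 SE, were not called.

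At the midbrain-hindbrain border 3 of 15 tested genes rose and 0 fell, with a list median of 0.04. Fgf18, a ligand made at that border, read 10.15, 9.79 and 10.77 at GD9:12, against 7.86, 7.52, 7.60 and 7.67 at GD8:15. Spry1, a feedback inhibitor of Fgf receptor signalling, read 11.23, 10.49 and 11.44 at GD9:12, against 8.61, 9.05, 9.70 and 8.88 at GD8:15. En2, which encodes an engrailed homeobox factor, read 10.25, 9.46 and 9.28 at GD9:12, against 8.19, 7.75, 7.52 and 7.78 at GD8:15. For all 3 genes every GD9:12 array was above every GD8:15 array. Fgf18 was 5.96-fold higher (adjusted p = 1.64e-04), Spry1 3.98-fold higher (adjusted p = 0.00334) and En2 3.61-fold higher (adjusted p = 0.00336), and each call held without each of the 7 arrays. Within the shared code series the differences were 2.68, 1.26 and 1.85, with no call (adjusted p = 0.0518, 0.309 and 0.135), and with the series as a fixed block Fgf18 was called while Spry1 and En2 were not. En1, the other engrailed gene, was bright at both stages, at 12.12 ± 0.97 (SD, n = 3) at GD9:12 and 11.56 ± 0.11 (SD, n = 4) at GD8:15, and its difference of 0.56 ± 0.43 SE was not called. The Fgf list held the same 2 Fgf genes and Fgf10, a ligand of mesenchyme, as its 3 risers of 19 (Fgf10 0.76 ± 0.21 SE, adjusted p = 0.142 without GD9:12 replicate 2 and above 0.05 without 5 further arrays).

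**Figure D2:**
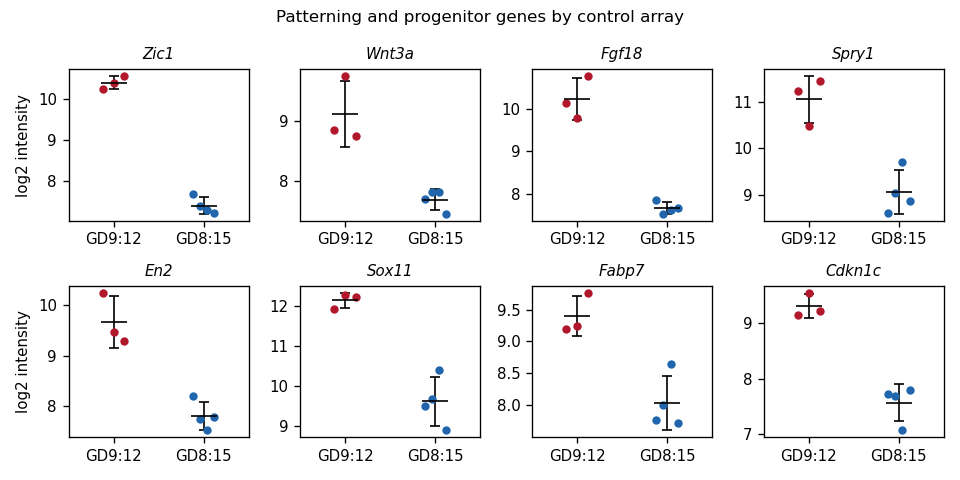
Points are the log2 intensities of single control arrays, with GD9:12 (3 arrays) on the left and GD8:15 (4 arrays) on the right of each panel, and bars give the mean and SD. In each of the 8 genes every GD9:12 array lies above every GD8:15 array, and the range of the vertical axis differs between panels.

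Genes of neural progenitors moved in both directions. Of 16 tested, 2 rose and 1 fell, with a median of 0.09. Sox11, a transcription factor of neural progenitors and young neurons, read 11.94, 12.29 and 12.23 at GD9:12, against 9.49, 9.68, 10.41 and 8.90 at GD8:15. That put Sox11 5.79-fold higher (adjusted p = 0.00142) by its brighter probe, but its dimmer probe, at a mean of 8.04 at GD9:12 and 8.36 at GD8:15, had a difference of -0.33 ± 0.20 SE and was not called. Fabp7, the fatty acid binding protein of radial glia, read 9.20, 9.25 and 9.77 at GD9:12, against 7.77, 8.00, 8.65 and 7.73 at GD8:15. The Fabp7 groups were separate (1.37 ± 0.29 SE, adjusted p = 0.0062). Sox2, which maintains neural progenitors, fell (-1.13 ± 0.33 SE, adjusted p = 0.0437), a call that ended without any 1 of the 7 arrays (adjusted p up to 0.165). The summed linear level of the 16 progenitor probes was 12721 to 13075 at GD9:12 and 7568 to 8442 at GD8:15, of which Sox11 by its brighter probe made up 30.9% to 38.6% at GD9:12 and 5.82% to 17.4% at GD8:15. Without Sox11 the sum was 7928 to 8795 at GD9:12 and 6435 to 7725 at GD8:15. Another large member was the intermediate filament gene Vim, at 11.16 ± 0.11 (SD, n = 3) at GD9:12 and 10.11 ± 0.27 (SD, n = 4) at GD8:15. Vim was not called (adjusted p = 0.263). Without Sox11 and Vim the sum was 5747 to 6613 at GD9:12 and 5067 to 6723 at GD8:15, which overlap.

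In the neuronal differentiation list 2 of 35 tested genes rose and 3 fell, with a median of 0.02. Elavl3, an RNA-binding protein of neurons, rose by 1.05 ± 0.25 SE and Dpysl3, a cytoskeletal protein of growing axons, by 1.05 ± 0.31 SE. Stmn2, a neuronal regulator of microtubules (-0.56 ± 0.14 SE), Crmp1, a relative of Dpysl3 (-0.80 ± 0.21), and Pou3f1, a POU transcription factor (-0.95 ± 0.28), fell. All 5 calls ended without GD9:12 replicate 2 (adjusted p from 0.0597 to 0.246) and without GD9:12 replicate 3, and for 4 of the 5 also without 1 or more other arrays. Cdkn1c, an imprinted inhibitor of the cell cycle that accompanies cell cycle exit, read 9.15, 9.55 and 9.21 at GD9:12, against 7.73, 7.68, 7.07 and 7.79 at GD8:15. Its groups were far apart (3.34-fold higher, adjusted p = 0.00425), and it was the 1 called gene of 11 tested cell cycle inhibitors. Of 63 tested genes for the cell cycle and DNA replication 1 rose and 3 fell (6.35% against 7.86% of all genes, median 0.04). Cdc20, which activates the ubiquitin ligase that ends mitosis, read 8.26, 7.90 and 8.04 at GD9:12, against 9.26, 9.20, 9.04 and 9.33 at GD8:15. Cdc20 was 2.21-fold lower (adjusted p = 0.00351) and kept its call without each array, whereas those of the replication licensing factor Cdc6 (higher), the clamp loader subunit Rfc1 (lower) and the mitotic kinase Aurka (lower) ended without GD9:12 replicate 2 (adjusted p = 0.0987, 0.13 and 0.115) and without 3 to 5 others.

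The few forebrain and retinoid genes that were called all rose, while the medians of the 2 lists were 0.15 and -0.10. Of the 13 tested retinoic acid genes 7 had a difference below 0. Of 16 tested forebrain and eye genes 2 rose, Nr2f2, a nuclear receptor of the diencephalon and of mesenchyme, and Foxd1, a forkhead factor of the diencephalon and retina. Nr2f2 read 9.02, 10.48 and 9.79 at GD9:12, against 7.92, 7.73, 6.88 and 8.53 at GD8:15. Foxd1 read 7.60, 9.24 and 8.47 at GD9:12, against 7.13, 7.10, 7.06 and 7.18 at GD8:15. The 3 GD9:12 arrays were above the others for both but were spread over more than 1 log2 unit, and both calls (adjusted p = 0.0142 and 0.0166) ended without GD9:12 replicate 2 (0.0932 and 0.125) and without GD9:12 replicate 3. In the retinoic acid list 3 of 13 rose, Nr2f2 again, the receptor gene Rxrb (0.41 ± 0.12 SE, adjusted p up to 0.148 with an array left out) and Aldh1a1, an enzyme that makes retinoic acid. Aldh1a1 read 8.00, 7.98 and 8.15 at GD9:12, against 7.39, 7.30, 7.16 and 7.26 at GD8:15. The change of Aldh1a1 was small, 0.77 ± 0.11 SE, but exceeded the spread within each group by far (adjusted p = 5.91e-04).

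Wnt components and guidance cues changed in small numbers. Of 33 tested Wnt genes 4 rose and 2 fell, with a median of 0.18. Besides Wnt3a, the risers were Rspo3, a secreted enhancer of Wnt signalling (0.98 ± 0.24 SE), Sfrp1, a secreted Wnt antagonist (0.95 ± 0.27), and Tcf7l2, a nuclear effector of the pathway (1.01 ± 0.29). The receptor Fzd2 (-0.96 ± 0.26) and the antagonist Sfrp5 (-0.28 ± 0.08) fell. Each of these 5 calls was lost with at least 2 of the 7 single arrays left out (highest adjusted p = 0.11 for Rspo3 and 0.223 for Tcf7l2). Of 42 axon guidance genes 4 rose and 1 fell (median 0.07): Efna2, an ephrin ligand (0.51 ± 0.11 SE), the semaphorin receptor subunit Plxna1 (0.84 ± 0.22), the repellent Slit2 (1.36 ± 0.36) and the ephrin ligand Efnb1 (0.40 ± 0.12) rose, and the ephrin receptor Epha2 fell (-0.53 ± 0.15). With single arrays left out, Efna2 lost its call without GD9:12 replicate 2 (adjusted p = 0.0537), and the other 4 without that array and at least 2 others.

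Of 39 tested genes of the neural tube closure list, 4 rose and 1 fell, with a median of 0.10. Tead2, a partner of the Hippo pathway coactivators, read 8.08, 8.17 and 8.10 at GD9:12, against 9.61, 9.44, 9.63 and 10.12 at GD8:15. Tead2 was 3-fold lower with groups more than 1 log2 unit apart (adjusted p = 1.64e-04). Dvl1, a Dishevelled protein of the Wnt and planar polarity pathways, read 8.22, 7.72 and 7.71 at GD9:12, against 7.23, 7.26, 7.31 and 7.16 at GD8:15. It rose by 0.64 ± 0.12 SE (adjusted p = 0.00265) from a level below the array median. Marcks, which links protein kinase C to the actin cortex, read 12.99, 12.98 and 12.97 at GD9:12, against 11.50, 11.47, 11.66 and 10.93 at GD8:15. Marcks was 3.01-fold higher (adjusted p = 0.0248), but was not called without any 1 of the GD9:12 arrays or GD8:15 replicate 4 (highest 0.0832), and the remaining risers were Zic2 and Nog. The actin-severing protein Cfl1 differed by -1.44 ± 0.46 SE and was not called (adjusted p = 0.0636). In the folate and one-carbon list 1 of 21 rose, Ggh, which removes glutamates from stored folate (2.22-fold higher, adjusted p = 0.0249, and 0.088 without GD9:12 replicate 2 and above 0.05 without 3 others), and the list median was -0.05.

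Among the listed genes the largest fall was that of a heart muscle gene, Myl7. Of 20 tested members of the heart and striated muscle list 4 fell and 0 rose, with a median of -0.19. Myl7, the atrial myosin light chain, read 8.77, 9.09 and 9.04 at GD9:12, against 14.23, 12.74, 13.56 and 12.71 at GD8:15. Actc1, cardiac actin, read 9.86, 11.35 and 10.38 at GD9:12, against 13.78, 13.08, 13.25 and 13.04 at GD8:15. Myl7 was 20.3-fold lower (adjusted p = 1.64e-04) and Actc1 6.77-fold lower (adjusted p = 0.00567), and the stages were separate for both. Gata6, a transcription factor of heart and endoderm, read 7.29, 7.21 and 7.42 at GD9:12, against 8.29, 7.94, 8.43 and 7.82 at GD8:15. Gata6 fell (-0.81 ± 0.18 SE, adjusted p = 0.00865), as did the cardiac factor Nkx2-5 (-0.90 ± 0.25 SE), whose call ended without GD9:12 replicate 2 (adjusted p = 0.109) and without 5 of the other arrays. With the authors' scaling 3 of the 20 were higher and 3 lower, and the list median relative to all probes was -0.23. With median centring the difference of Actc1 was -1.95 and was not called (adjusted p = 0.0594).

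Some smooth muscle genes also fell. Of 8 tested 2 fell and 0 rose, with a median of -0.52. Cnn1, a calponin of smooth muscle that the embryonic heart also makes, read 7.91, 7.79 and 7.47 at GD9:12, against 10.29, 9.82, 9.69 and 9.51 at GD8:15. Acta2, smooth muscle actin, read 7.25, 7.27 and 7.23 at GD9:12, against 8.07, 7.85, 8.15 and 7.82 at GD8:15. Cnn1 was 4.29-fold lower (adjusted p = 0.00123) and Acta2 1.65-fold lower (adjusted p = 0.00601), both with separate groups and with calls that held without each array, although Acta2 was not called with the authors' scaling (-0.58, adjusted p = 0.0619). Tagln, an actin-binding protein of smooth muscle, differed by -1.28 ± 0.68 SE and was not called, and its GD8:15 arrays ranged from 8.03 on replicate 3 to 10.97 on replicate 2. Without replicate 3 the difference was -1.98 and was called.

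Summed over the 20 heart probes, the linear level was 5868 to 9702 at GD9:12 and 20663 to 38989 at GD8:15, with no overlap. Myl7 and Actc1 made up 23.2% to 32.4% of it at GD9:12 and 67.4% to 85.3% at GD8:15, and the other 18 probes summed to 4505 to 6556 at GD9:12 and 5132 to 7303 at GD8:15, which overlap. For the 8 smooth muscle probes it was 2737 to 3542 at GD9:12 and 3618 to 6190 at GD8:15. In the arsenic arrays the heart sum was 5545 to 8662 at GD9:12 and 8884 to 16553 at GD8:15, so that control arrays of GD8:15 held the highest heart sums of these 4 groups. How much heart tissue a dissection held was not tested.

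The bases just before the transcription start of 4 of these falling muscle genes are shown because their muscle expression is classically tied to the CArG box, which serum response factor binds. The stretches run 120 bases up to the start, 5′ to 3′ on the strand of the gene, from RefSeq on GRCm38.p6, and a CArG box found by a search of both strands, read as CC, 6 letters that are each A or T, and GG, is in capitals. They lie at chr11:5898783-5898902 (minus strand) for Myl7, chr2:114052876-114052995 (minus) for Actc1, chr9:22099133-22099252 (plus) for Cnn1 and chr19:34255374-34255493 (minus) for Acta2.
Myl7: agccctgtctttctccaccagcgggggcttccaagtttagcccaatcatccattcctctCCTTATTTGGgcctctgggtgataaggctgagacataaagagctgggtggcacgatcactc
Actc1: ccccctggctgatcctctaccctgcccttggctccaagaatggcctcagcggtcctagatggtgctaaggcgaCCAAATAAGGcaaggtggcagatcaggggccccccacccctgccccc
Cnn1: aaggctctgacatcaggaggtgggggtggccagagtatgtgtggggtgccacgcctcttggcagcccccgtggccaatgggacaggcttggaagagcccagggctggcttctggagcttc
Acta2: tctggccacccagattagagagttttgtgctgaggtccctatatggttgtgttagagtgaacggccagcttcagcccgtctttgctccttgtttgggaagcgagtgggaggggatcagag
The box lies at -61 to -52 in Myl7 and at -47 to -38 in Actc1, counted from the start. No such exact match lies in the 250 bases before the start of Cnn1 or Acta2. Acta2 has 2 stretches that are 1 letter off the box, at -84 to -75 and -34 to -25, and Cnn1 has 0, while 886 of the promoters searched (15.4%) hold at least 1 such stretch. Among 5749 tested genes with a promoter in the table, 82 held the exact box in those 250 bases (1.43%), and among the 21 heart and smooth muscle genes with one 5 did. The others were Acta1, Myl3 and Cnn2, of which 0 were called (-0.49 ± 0.15 SE for Acta1). A match is a description of the sequence, not a site shown to be bound. Likewise, the lack of an exact match does not show that a gene lacks a CArG box, and bases beyond the 250 were not searched.

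**Figure D3:**
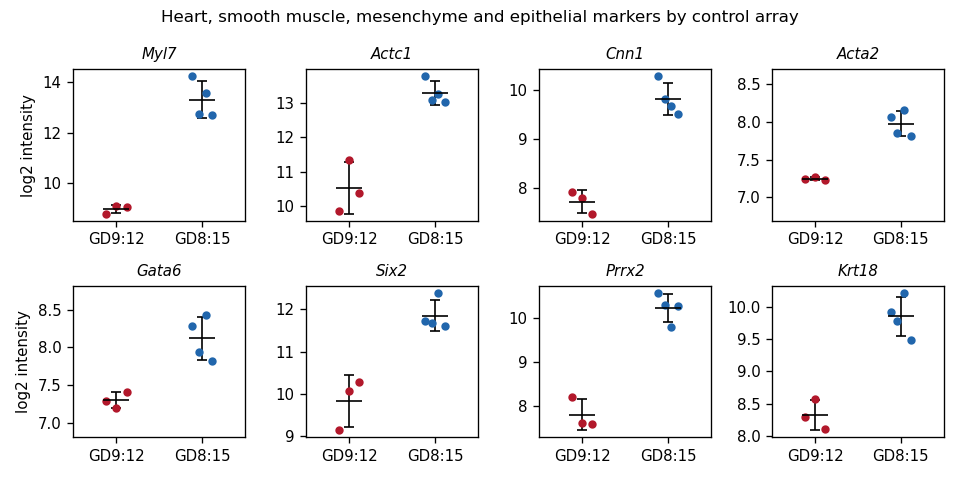
Points are log2 intensities of single control arrays, with GD9:12 on the left and GD8:15 on the right, and bars give the mean and SD. In each of the 8 genes the 3 GD9:12 arrays lie below all 4 GD8:15 arrays, and the range of the vertical axis differs between panels.

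Some mesenchymal transcription factors fell as well. Of 16 tested members of the mesenchyme list 5 fell and 0 rose, with a median of -0.29. Six2, a homeobox factor of facial mesenchyme, read 9.14, 10.08 and 10.28 at GD9:12, against 11.72, 11.66, 12.39 and 11.61 at GD8:15. Prrx2, a homeobox factor of cranial mesenchyme, read 8.21, 7.61 and 7.58 at GD9:12, against 10.59, 10.30, 9.81 and 10.27 at GD8:15. Six2 was 4.04-fold lower (adjusted p = 0.00159) and Prrx2 5.43-fold lower (adjusted p = 0.00951), with separate groups and calls that held without each array. With median centring the difference of Six2 was -1.32 and was not called (adjusted p = 0.126). Tbx1 of pharyngeal mesoderm (-0.73 ± 0.17 SE), Tcf15 of somites (-0.66 ± 0.16) and Osr1 of intermediate and lateral mesoderm (-0.70 ± 0.21) fell to levels near the lower quartile of the array, with calls that ended without GD9:12 replicate 2 (adjusted p = 0.0568, 0.0661 and 0.128) and at least 1 other array. The summed level of the 16 probes was 9818 to 12580 at GD9:12 and 14253 to 16806 at GD8:15. Six2 and Prrx2, both lower at GD9:12, are part of this sum, and the sum without them was not computed. Its separation therefore does not show a fall of the other members. Of the 16 genes 11 were not called. Neural crest genes held 0 calls among 18 tested, against 7.86% of all genes, with a median of 0.03. The crest and mesenchyme factor Twist1 differed by -0.41 ± 0.42 SE and the crest factor Sox10 by -1.35 ± 0.45 SE, neither called.

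Surface ectoderm and epithelial genes fell in 3 of 17 tested and rose in 1, with a median of -0.13. Cdh1, the epithelial cadherin that the neural plate gives up as it folds, read 7.28, 7.31 and 7.28 at GD9:12, against 8.39, 8.05, 7.97 and 7.92 at GD8:15. The keratin gene Krt18 read 8.29, 8.57 and 8.11 at GD9:12, against 9.91, 9.78, 10.22 and 9.49 at GD8:15. Cdh1 was 1.73-fold lower (adjusted p = 0.00228), Krt18 2.88-fold lower (adjusted p = 0.00736) and the keratin Krt19 2.05-fold lower (adjusted p = 0.00413), all without overlap of the stages. Cdh1 was not called with the authors' scaling (-0.60, adjusted p = 0.0754), nor Krt18 with median centring (-1.21, adjusted p = 0.0743). Cldn4, a claudin of tight junctions, rose (0.73 ± 0.21 SE), a call lost with 6 of the 7 arrays when each was left out (highest adjusted p = 0.219). The summed level of the 17 probes overlapped, at 6492 to 7732 for GD9:12 and 6297 to 14883 for GD8:15. Endothelial genes held 1 call among 19, the vascular receptor partner Ramp2 (-1.36 ± 0.36 SE, adjusted p = 0.148 without GD9:12 replicate 2 and above 0.05 without 2 others). The endothelial sum was 4935 to 5536 at GD9:12 and 5767 to 8075 at GD8:15.

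Blood genes were variable. Of 17 tested, 0 were called, against 7.86% of all genes, and the median was 0.10. The adult-type alpha globin Hba-a1 read 13.87, 14.68 and 15.44 at GD9:12, against 12.85, 12.28, 12.01 and 12.30 at GD8:15. The stages did not overlap, but the difference of 2.30 ± 0.88 SE was not called (adjusted p = 0.129), and GD9:00 arrays ranged from 7.86 to 12.57. The embryonic globins Hba-x (1.00 ± 0.31 SE, adjusted p = 0.0597) and Hbb-y (0.70 ± 0.25 SE, adjusted p = 0.105) had positive differences that did not pass. The blood sum was 23791 to 52817 at GD9:12 and 9868 to 13980 at GD8:15, and its part in other results was not tested.

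The extracellular matrix list had 3 rises and 2 falls among 39 tested, with a median of -0.04. Lamc1, the laminin chain shared by most basement membranes, read 10.15, 10.35 and 9.97 at GD9:12, against 9.02, 9.07, 9.01 and 8.48 at GD8:15. The rise of Lamc1 (2.4-fold higher, adjusted p = 6.69e-04) was called without each of the 7 arrays. The fibrillar collagen genes Col11a1 (1.39 ± 0.38 SE) and Col2a1 (0.34 ± 0.09 SE) rose, and the basement membrane collagen Col4a1 (-1.06 ± 0.25) and the glycoprotein gene Fbln1 (-1.03 ± 0.24) fell. Without GD9:12 replicate 1 Col2a1, Col4a1 and Col11a1 were not called (adjusted p = 0.0962, 0.072 and 0.058), and without GD9:12 replicate 2 Col11a1 and Fbln1 were not (0.0873 and 0.0717). Col2a1 and Fbln1 also lost the call without GD9:12 replicate 3, and Col11a1 without 4 further arrays.

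Of 21 tested glycolysis and lactate genes 4 fell and 1 rose, with a median of -0.37. Ldha, which makes lactate from pyruvate, read 10.13, 11.07 and 10.60 at GD9:12, against 12.91, 13.21, 13.89 and 14.17 at GD8:15. Its levels at GD8:15 were among the brightest of the named genes, and it was 7.68-fold lower at GD9:12 (adjusted p = 4.31e-04). Pgam2, the muscle form of phosphoglycerate mutase, read 7.13, 7.07 and 7.11 at GD9:12, against 8.41, 8.09, 8.46 and 8.58 at GD8:15. Pgam2 was 2.43-fold lower (adjusted p = 6.69e-04), and Eno3, the muscle form of enolase, was 2.73-fold lower (adjusted p = 0.00632). Thus 2 of the 4 falling members are muscle forms, and any link of their falls to those in the heart list was not tested. Slc16a3, a lactate exporter, was 2.64-fold lower but was not called without GD9:12 replicate 2 (adjusted p = 0.218) and without 4 others, and its difference was -0.40 with the authors' scaling (adjusted p = 0.534).

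Pkm, pyruvate kinase, moved the opposite way. It read 9.34, 10.94 and 9.66 at GD9:12, against 8.26, 8.04, 7.50 and 7.53 at GD8:15. That was 4.43-fold higher (adjusted p = 0.00595, and 0.0533 without GD9:12 replicate 2), but at the stage between them it was higher still, at 13.11, 13.30, 12.48 and 12.27 on the 4 GD9:00 arrays. Tkt, transketolase of the pentose phosphate pathway, was 6.88-fold lower (-2.78 ± 0.64 SE, adjusted p = 0.012, and 0.0634 without GD9:12 replicate 1). The 14 tested hypoxia response genes held 1 call, that of Slc16a3, and had a median of 0.33.

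**Figure D4:**
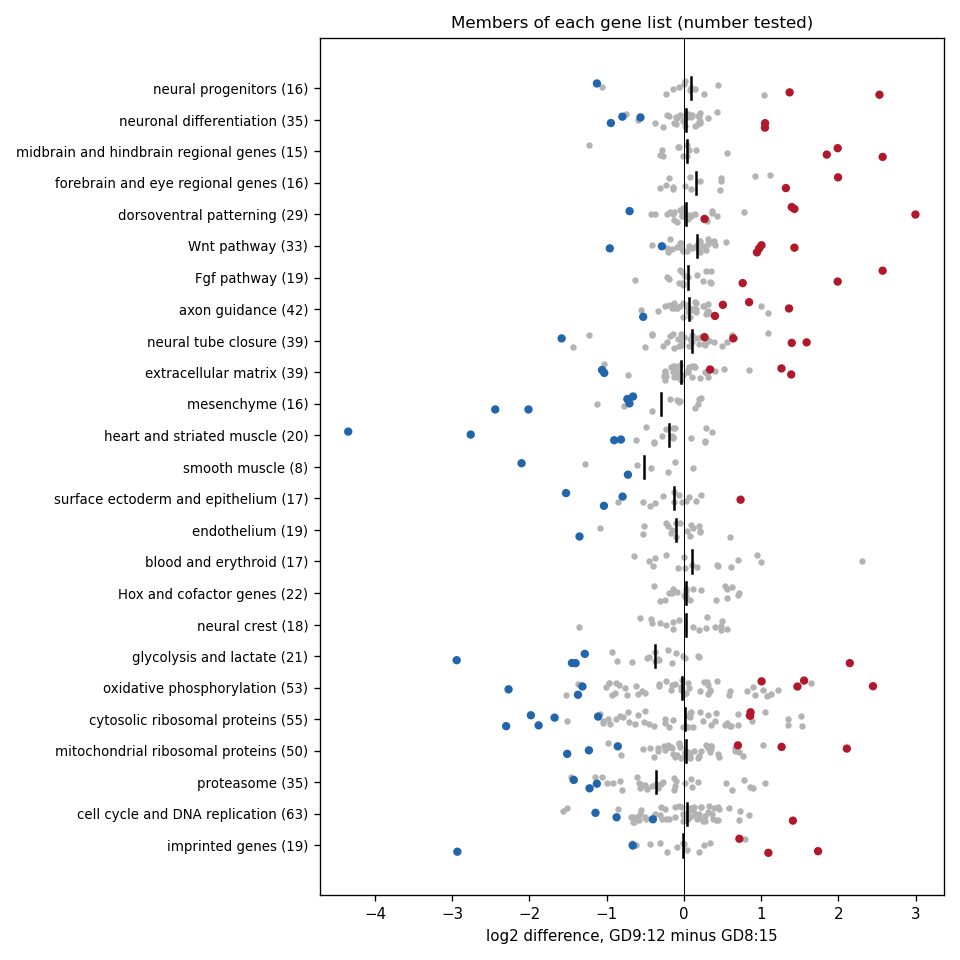
Each row is a gene list with its number of tested genes, each point 1 gene by its brightest probe, and the horizontal axis is the log2 difference GD9:12 minus GD8:15. Red and blue points were called higher and lower, grey were not called, and the vertical tick is the median, which lies lowest for smooth muscle (-0.52), glycolysis (-0.37), proteasome (-0.36) and mesenchyme (-0.29) among the lists drawn.

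Oxidative phosphorylation and ribosomal protein genes had called members in both directions. Of 53 oxidative phosphorylation genes 4 rose and 3 fell, with a median of -0.02. Atp5md, a small subunit of the ATP synthase, read 10.74, 12.22 and 11.09 at GD9:12, against 9.20, 8.89, 9.24 and 8.27 at GD8:15. Atp5g2, which encodes subunit c of the same enzyme, read 8.38, 8.62 and 8.56 at GD9:12, against 10.75, 10.94, 10.26 and 11.20 at GD8:15. Subunits of 1 enzyme thus moved apart, Atp5md 5.46-fold higher and Atp5g2 4.82-fold lower (adjusted p = 0.00336 and 9.71e-04), and another subunit gene, Atp5j2, was 2.49-fold lower. Atp5j2 was not called with the authors' scaling (-0.42, adjusted p = 0.42) or with median centring (-0.62, adjusted p = 0.322). Cox7a2 of cytochrome oxidase (2.77-fold higher) and Ndufb9 of complex I (2.01-fold higher) rose and were called without each array, while the complex I genes Ndufc1 (higher) and Ndufa7 (lower) lost the call without GD9:12 replicate 2 (adjusted p = 0.128 and 0.148) and without 1 and 4 others. With the authors' scaling 19 of the 53 were higher and 1 lower, and the list median relative to all probes was 0.51, so no direction of the list is stated.

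Cytosolic ribosomal protein genes rose in 2 and fell in 5 of 55 tested (median 0.01). Rpl27a read 10.58, 11.17 and 10.60 at GD9:12, against 13.52, 12.96, 13.03 and 12.82 at GD8:15. Rpl29 read 8.14, 8.56 and 8.20 at GD9:12, against 7.52, 7.58, 7.45 and 7.22 at GD8:15. Rpl27a was 4.93-fold lower and Rpl29 1.81-fold higher with no overlap (adjusted p = 0.00101 and 4.61e-04). Rpl9 (-1.67 ± 0.27 SE), Rps4l (-1.88 ± 0.36), Rpl11 (-1.11 ± 0.24) and Rps18 (-1.98 ± 0.47) fell too, and Rpl31 rose (0.86 ± 0.22). The calls of Rps18 and Rpl31 ended without GD9:12 replicate 3 and 1 or 3 other arrays (highest adjusted p = 0.0632 and 0.128). Rpl11 differed by -0.19 with the authors' scaling (adjusted p = 0.775), by -0.39 with median centring (adjusted p = 0.582) and by -0.11 ± 0.22 SE in arsenic arrays, and was called in none of these. With median centring Rpl27a and Rpl9 were not called either (adjusted p = 0.114 and 0.0949). Ribosomal protein genes have many near-identical copies in the genome, so a probe may read more than its named gene. With the authors' scaling 19 of the 55 were higher and 3 lower.

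Mitochondrial ribosomal protein genes rose in 3 and fell in 3 of 50 (median 0.02), with Mrps31 (0.70 ± 0.09 SE, adjusted p = 2.71e-04) and Mrpl37 (-1.51 ± 0.24 SE, adjusted p = 9.74e-04) called without each array. Mrpl13 and Mrps18c (higher) and Mrps18a and Mrpl4 (lower) lost the call with at least 3 of the single arrays left out (highest adjusted p = 0.0661, 0.288, 0.127 and 0.15), and Mrps18c read 14.31 on GD9:12 replicate 3 against 11.07 and 11.20 on the other GD9:12 arrays. Of 35 proteasome genes 3 fell and 0 rose, which is 8.57% against 7.86% of all genes, with a median of -0.36. Psme2, a subunit of the proteasome activator, read 7.60, 7.53 and 7.46 at GD9:12, against 8.77, 9.04, 8.51 and 8.68 at GD8:15. Psme2 was 2.33-fold lower (adjusted p = 0.00331), and the core subunits Psma7 and Psma5 lost the call with 6 of the 7 arrays when each was left out (highest adjusted p = 0.11 and 0.179). With the authors' scaling 5 proteasome genes were higher and 1 lower, while the list median relative to all probes was -0.13. Called genes differed in size: the median gene length was 26473.5 bases for those higher, 12138 bases for those lower and 19720.5 bases for all tested, and the part of length in these results was not tested.

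Imprinted genes, which are expressed from 1 parental allele and often bear on embryonic growth, changed in 5 of 19 tested, 3 higher and 2 lower, with a median of -0.01. Phlda2, a maternally expressed growth restrainer of the placenta, read 9.51, 9.62 and 8.54 at GD9:12, against 12.51, 11.86, 12.74 and 11.54 at GD8:15. Phlda2 was 7.64-fold lower with separate groups (adjusted p = 0.00396). Nap1l5, a paternally expressed nucleosome assembly relative, rose by 0.72 ± 0.11 SE (adjusted p = 8.38e-04), Cdkn1c rose as given above, Usp29 rose (1.09 ± 0.29 SE) and Mest fell (-0.66 ± 0.18 SE). Usp29 and Mest were not called without GD9:12 replicate 2 (adjusted p = 0.137 and 0.0824) and without 5 and 3 others, and Mest had the opposite sign under the authors' scaling.

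Single members of other lists were called. The small heat shock protein gene Hspb1, which the embryonic heart expresses, read 7.17, 7.15 and 7.09 at GD9:12, against 8.42, 7.69, 8.12 and 7.90 at GD8:15. It was 1.86-fold lower (adjusted p = 0.0015), the 1 call among 20 heat shock and oxidative stress genes. Tm7sf2, a sterol reductase, was 2.39-fold higher (adjusted p = 0.00446), the 1 call among 12 cholesterol synthesis genes. In the epiblast and primitive streak list the pluripotency factor Utf1 fell (-0.53 ± 0.13 SE) and Klf2 rose (0.89 ± 0.23 SE), both lost without GD9:12 replicate 2 (adjusted p = 0.0559 and 0.0944) and at least 2 other arrays, and among 17 Notch genes the fringe enzyme Rfng fell (-0.64 ± 0.19 SE, highest 0.151 over 5 arrays without which its call ended). No call was made among 22 Hox and cofactor genes (median 0.03), 15 endoderm genes (-0.10), 9 macrophage genes (-0.12), 18 genes of the integrated stress response (-0.11) or 6 sex-linked genes (-0.08). As 7.86% of all genes were called, lists this short can hold 0 calls without differing from the rest.

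Several of the largest changes belonged to no list. Wfdc1, a secreted protein with a protease inhibitor domain, read 10.19, 10.77 and 11.11 at GD9:12, against 8.13, 7.57, 7.27 and 7.51 at GD8:15. Ccdc88a, the actin-binding protein girdin, read 10.63, 10.92 and 10.85 at GD9:12, against 8.03, 7.94, 8.30 and 7.53 at GD8:15. H2az1, the histone variant H2A.Z, read 12.44, 13.28 and 12.93 at GD9:12, against 9.94, 10.16, 11.69 and 9.50 at GD8:15. Wfdc1 was 8.38-fold higher, Ccdc88a 7.21-fold higher and H2az1 5.91-fold higher, all with separate groups (adjusted p = 3.51e-05, 3.51e-05 and 0.00498). Kdm6a, a histone demethylase encoded on the X chromosome, read 11.01, 10.26 and 10.32 at GD9:12, against 8.92, 8.39, 8.34 and 7.93 at GD8:15. It was 4.39-fold higher (adjusted p = 9.25e-04), and its highest value was on GD9:12 replicate 1, the array with high Xist. Usp9x, an X-linked deubiquitinase (2.19 ± 0.36 SE), and Mfsd14a, a transporter-like membrane protein (2.15 ± 0.41 SE), were also called without each array, although the second Usp9x probe had a difference of -0.18 ± 0.62 SE. Peli1, a ubiquitin ligase (2.39 ± 0.66 SE), and the prefoldin subunit Vbp1 (2.21 ± 0.63 SE) lost the call without 7 and 6 single arrays (highest adjusted p = 0.153 and 0.162). On GD9:12 replicate 1, where Kdm6a was highest, the X-linked genes Usp9x (11.73) and Vbp1 (10.02) were lowest of the 3 GD9:12 arrays.

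Among the largest falls outside the lists was Get4, which helps insert tail-anchored proteins into membranes. Get4 read 9.04, 8.36 and 8.48 at GD9:12, against 11.62, 11.57, 11.34 and 10.90 at GD8:15. Ptov1, a regulator first described in prostate tumours, read 10.32, 9.36 and 10.10 at GD9:12, against 12.34, 13.22, 12.43 and 12.57 at GD8:15. Hspbp1, a nucleotide exchange factor of Hsp70, read 10.04, 9.21 and 9.26 at GD9:12, against 12.81, 12.39, 11.39 and 12.34 at GD8:15. These 3 were 6.65-fold lower, 6.57-fold lower and 6.64-fold lower without overlap (adjusted p = 8.64e-04, 6.46e-04 and 8.64e-04). Mif, a secreted cytokine, was 5.63-fold lower and the Elongator-associated protein gene Kti12 5.31-fold lower, both called without each array. Trim28, a corepressor that silences retroelements, was 8.2-fold lower (-3.04 ± 0.68 SE, adjusted p = 0.00992, and 0.0534 without GD9:12 replicate 1).

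The control arrays of GD9:00 were set between the other stages. All 4 were of the shared code series, to which 1 of the 4 GD8:15 arrays and 2 of the 3 GD9:12 arrays belonged. The GD9:00 mean lay between the other stages for 221 of the 295 probes that rose and 225 of the 309 that fell. Between neighbouring stages 1174 probes were called from GD8:15 to GD9:00 (15%) and 883 from GD9:00 to GD9:12 (11.3%), and these comparisons share arrays with each other and with the main one. Within the shared series 59 and 561 probes were called for the earlier and the later step, and with the series as a fixed block 35 and 520 were, so most calls of the earlier step ended in these fits, which hold 1 GD8:15 array of that series. Zic1 averaged 7.41 at GD8:15, 7.84 at GD9:00 and 10.41 at GD9:12. Its step was 0.43 up to GD9:00 (adjusted p = 0.215) and 2.57 after it (adjusted p = 1.01e-05). Fgf18 and Tead2 likewise had their called step after GD9:00, at 2.23 (adjusted p = 4.15e-04) and -1.08 (adjusted p = 0.00271). Sox11 and H2az1 had theirs before it, at 1.78 (adjusted p = 0.00655) and 2.59 (adjusted p = 0.00208), as did Cdh1 at -0.90 (adjusted p = 2.80e-04). Within the shared series the later step was 2.65 (adjusted p = 0.00296) for Zic1, 2.28 (adjusted p = 0.0126) for Fgf18 and -1.06 (adjusted p = 0.0104) for Tead2. The earlier step there was 0.99 for Sox11, 1.22 for H2az1 and -0.79 for Cdh1, and with 1 GD8:15 array in that series no call is stated. With the series as a fixed block none of these earlier steps was called. Whether a step differed from the other was not tested.

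Ldha stayed bright at GD9:00, at 14.56, 14.19, 13.84 and 14.05 on the 4 arrays. Its step was 0.61 before GD9:00 (adjusted p = 0.29) and -3.56 after it (adjusted p = 7.66e-05). Pkm rose by 4.96 (adjusted p = 6.95e-07) and then changed by -2.81 (adjusted p = 7.83e-04). In heart genes the GD9:00 arrays were spread widely, with Myl7 at 10.29, 12.32, 11.67 and 13.14 and Actc1 at 10.46, 11.09, 10.82 and 13.12, and the heart sum at GD9:00 ran from 6864 to 22819. Both Myl7 and Actc1 were highest on GD9:00 replicate 4.

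The arsenic arrays gave the same stage comparison in 4 GD9:12 and 4 GD8:15 arrays that did not enter the control group means. All arrays of the series were normalised together and shared a variance estimate for each probe. Calls in the arsenic and control arms are therefore not independent of each other. All 4 arsenic GD9:12 arrays were of the shared code series and all 4 arsenic GD8:15 arrays of another, so that stage and code series cannot be told apart in this arm. With the series as a fixed block, whose effect is then estimated from control arrays alone, 7 probes were called there. Without the block limma called 1082 probes, 13.8% of those tested, 566 higher (7.23%) and 516 lower (6.59%) at GD9:12. Without arsenic GD9:12 replicate 2 the count was 693. Of the 604 probes called in controls 413 were called in the same direction in arsenic arrays, 210 higher and 203 lower, which is 68.4% of the control calls and 38.2% of the arsenic calls. The sign was the same for 597 of the 604 (98.8%), against 74.5% of all tested probes, and 0 were called in opposite directions. Zic1 (2.67 ± 0.23 SE), Fgf18 (2.27 ± 0.30), Wnt3a (1.32 ± 0.22), En2 (1.79 ± 0.32), Sox11 (3.07 ± 0.39), Lamc1 (1.51 ± 0.17), Ldha (-2.04 ± 0.38) and Tead2 (-1.27 ± 0.19) were among the genes called in both arms.

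For the named muscle and mesenchyme genes the arsenic arrays gave smaller values, though no difference between the arms passed its test. Myl7 differed by -2.62 ± 0.52 SE there (adjusted p = 0.00283) and by -4.35 ± 0.56 SE in controls. Cnn1 differed by -0.72 ± 0.32 SE in arsenic arrays (adjusted p = 0.135), Six2 by -0.95 ± 0.32 (adjusted p = 0.0538), Actc1 by -1.49 ± 0.53 (adjusted p = 0.0664) and Prrx2 by -1.18 ± 0.50 (adjusted p = 0.126), all 4 not called. The arsenic change was the smaller one for 420 of the 604 probes, which had been chosen by their change in controls. Tested directly, the change differed between the arms for 0 of 7833 probes (0%, limma, lowest adjusted p = 0.784). Before adjustment 325 probes had a p under 0.05. The adjusted p of that difference was 1 for Myl7 and 1 for Cnn1. The median SE of such a difference was 0.27 on the log2 scale, and differences of several SE did not pass the adjustment, so this test does not show that the arms changed alike.

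**Figure D5:**
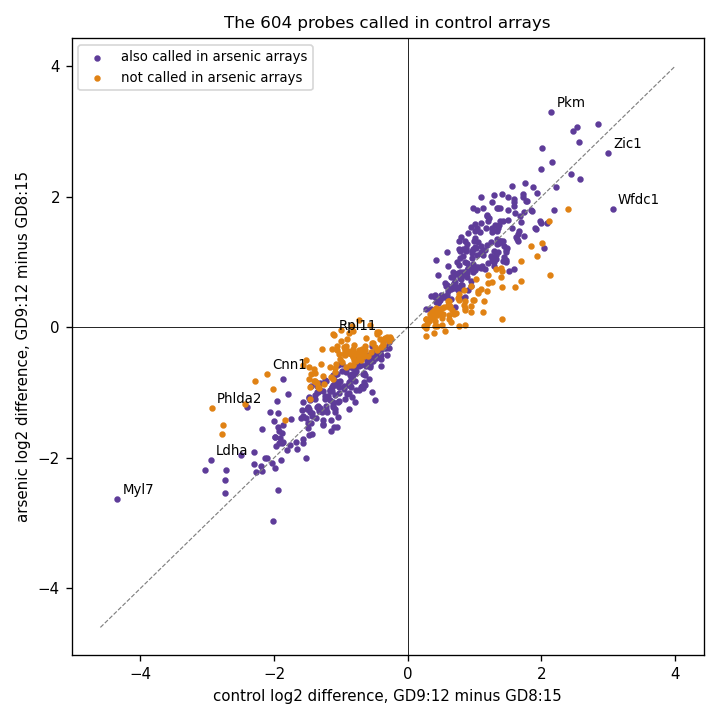
Each point is 1 of the 604 probes called in controls, with the control log2 difference GD9:12 minus GD8:15 on the horizontal axis and that of the arsenic arrays on the vertical axis, and the dashed line marks equal change. The 413 purple points were also called in the arsenic arrays, and 597 points have the same sign in both arms.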

How the data were processed

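The deposited table held 1 linear intensity per probe and array, scaled by the authors to an array mean of about 1000 at GD9:12 and 600 at GD8:15. Per the labels' protocols, total RNA was amplified and biotin-labelled, then detected with a fluorescent streptavidin. The scanner software and background correction are not given in the sources used here. Values of 1 or 2 (279 on the 7 arrays) were set to missing. Intensities of all 22 arrays were log2 transformed and quantile normalised. Of 10500 probes, 7833 were tested, which needed 2 or more values in every group and a mean outside the lowest 25%, and 7286 of them had 1 gene symbol in the platform annotation. Symbols and gene lengths were matched to a RefSeq table (9323 of 9378 probes with 1 symbol), and promoter sequences came from RefSeq on GRCm38.p6.

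A linear model with 6 group means over 22 arrays, with eBayes and Benjamini-Hochberg adjustment (limma 3.58.1, R 4.3.3), gave control GD9:12 minus GD8:15, the same for arsenic arrays, and the difference of both. The median SE of the control difference was 0.198, and the number of arrays limits this precision. Figures were drawn with Python 3.11.15 and matplotlib 3.10.9. The test was checked on simulated data.

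The comparison, its 37 gene lists and the rule for named genes were chosen with earlier results of these data known. Named were the 12 called genes of greatest increase, the 12 of greatest decrease and up to 6 members of lowest p in each list. Folr2, sex-linked genes and a few members by role were added, as was Kdm6a, which is in no list. Alternatives were the authors' scaling, median centring, other filters, kept placeholders, fewer arrays in the fit, other variance models, array weights, the code series, masked runs of low signal, each array left out and, added after seeing the data, normexp background correction and the code series for the arsenic comparison and the steps around GD9:00. Replicate numbers were given in accession order.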

Additional observations from a re-analysis of the deposited data

Results flagged for a closer look

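Of 134 values of named genes and marker sums at control GD8:15, 8 had 1 array far from the other 3 (Dixon's test, which chance passes in about 1 of 20 groups). 4 of the 8 lay on replicate 3, 2 on replicate 4, and 1 each on replicates 1 and 2. On replicate 3, the smooth muscle gene Tagln read 8.03, against 10.64 to 10.97 on the other arrays. The mesenchymal gene Six2 read 12.39 there, against 11.61 to 11.72, and the cell cycle inhibitor Cdkn1c 7.07, against 7.68 to 7.79. The Y-linked gene Eif2s3y read 7.79 on replicate 3, against 7.66 to 7.67. On replicate 4, the homeobox gene En1 read 11.72, against 11.49 to 11.52, and the laminin gene Lamc1 8.48, against 9.01 to 9.07. Osr1, of intermediate mesoderm, read 8.45 on replicate 1, against 7.49 to 7.63, and the receptor Rxrb 6.88 on replicate 2, against 7.02 to 7.03. The groups of 3 arrays at GD9:12 were too small for this test.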

How the results depend on the processing

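No paired analysis was possible because the labels give no replicate numbers, and those used here only name arrays in accession order. The count of 604 called probes stayed within 1.5 times (550 to 873) without a filter or with a stricter one, with placeholders kept, with only the 7 or only the 11 control arrays in the fit, with trended and robust variance, with the code series as a random block, with runs of low signal masked and with normexp. It was 1421 with the authors' scaling (364 of them among the 604), 974 with median centring (447), 2035 with array weights (603), 47 with the code series as a fixed block (36) and 128 within the code series shared by both stages (90). With 1 array left out it ran from 291 without GD9:12 replicate 2 to 580 without GD8:15 replicate 3. The count of 1082 in arsenic arrays was 1667 with array weights, 7 with the code series as a fixed block (added after seeing the data) and 693 to 1050 with 1 array left out. The difference between the arms had 0 calls under every alternative run for it. Why these counts moved was not tested, except that the fits within the shared series and with the fixed block compare fewer arrays of both stages. Of 113 named genes with a call, 54 kept it without each of the 7 arrays and 59 lost it without at least 1, while 105 lost it with the fixed block, 93 within the shared series, 33 with the authors' scaling and 28 with median centring. The sign turned for Mrpl4 (0.13) and Mest (0.38) under the authors' scaling, for Mest (0.18) under median centring, for Tagln (0.87) and Xist (-0.12) with the fixed block and within the shared series, and for Xist without GD9:12 replicate 1 (-0.13, up to 2.10 without replicate 3). Of the 604 probes 176 had a stage mean below the array median, and how far background limits their differences was not tested.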
